A study of Mus musculus with 8 samples.

Results

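The transcription factors of the Myc family and the Max network were followed probe by probe in mouse neural progenitor cells that expressed W20 or EGFP. The genes were Myc, Mycn, Mycl, Max, Mxd1, Mxd3, Mxd4, Mnt and Mga, and every non-control array probe whose accession mapped to one of them through RefSeq was taken. This gave 16 probes of 9 genes, of 41174 probes and 18842 gene symbols on the array. The genes were chosen by name, and Myc was selected on the measured levels of its probes, which differ in direction over 72 h, so each probe is shown separately. All Myc differences other than W20 against EGFP in untreated progenitors are therefore descriptions without a test. The probes comprised 3 for Myc, 3 for Mga, 2 each for Mycn, Mxd1 and Mxd3, and 1 each for Mycl, Max, Mxd4 and Mnt.

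Myc proteins are basic helix-loop-helix leucine zipper factors that bind DNA only as partners of Max. Myc-Max dimers recognise the E-box CACGTG and activate genes of growth, nucleotide synthesis and ribosome production. The Mxd proteins and Mnt compete for Max and recruit Sin3 and histone deacetylase complexes to the same sites, and Mga pairs with Max inside a Polycomb-type repressor complex. In the embryonic brain Mycn is the family member best known from proliferating progenitors, where Hedgehog signalling activates it, and Myc is one of the classic factors used to reprogram somatic cells.

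The cells were N31, a mouse line of neural progenitors (NPC) made from embryonic stem cells. They carried either EGFP, a fluorescent protein that served as the control, or W20, in a study of how bacterial proteins act on reprogramming. EGFP NPC and W20 NPC were kept in RHB basal medium with EGF and bFGF, each at 10 ng/ml. For the 72 h groups, EGFP and W20 cells first spent 48 h in NPC medium that contained Dox (40 ng/ml). They were then moved for 24 h, with Dox at the same dose, to GMEM with 10% KSR, LIF at 1000 U/ml, ACTH, pyruvate, nonessential amino acids and 2-mercaptoethanol. The gene that Dox induces, the promoter that drives W20 or EGFP, and the number of clones are not given in the sources used here. Each of the 4 groups had 2 arrays, and nothing in the labels says that replicates came from separate cultures, which means that the tests see the spread between arrays, and this spread may be technical.

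The total RNA was labelled with Cy3 and read on 1-colour Agilent arrays, on which 57.0% to 62.4% of spots were well above background and no spot was saturated. Replicate arrays correlated across 22027 probes with r of 0.998 to 0.999. All NPC arrays lay on slide 1 and all 72 h arrays on slide 2, so slide, stage, Dox and medium cannot be told apart. On each slide the EGFP arrays had positions 1 and 2 and the W20 arrays positions 3 and 4, so position and W20 cannot be told apart either. Of 14 neural progenitor markers 13 were tested and Olig2 was not. Nes, Sox2, Pax6 and Vim were well above background on all 8 arrays, while Sox1 and Fabp7 were so on 5 and Hes5 on 2. Their summed signal, in multiples of the 75th percentile of the array, was 128 to 157 over the 8 arrays and was mostly that of Vim, so it hides other markers that moved. With W20 in NPC, Egfr was lower by 1.51, Slc1a3 by 1.21 and Sox2 by 0.71 on the log2 scale (limma adjusted p = 1.51e-04, 7.71e-04 and 4.36e-04), and over 72 h Sox9 fell by 2.86 in EGFP cells and 3.97 in W20 cells (6.10e-07 and 2.25e-07). The part of these changes in the results below was not tested. Pou5f1 and Dppa3, markers of pluripotent cells, were not well above background on both arrays of any group, and Nanog had no probe. The other 3 markers of that list, Zfp42, Esrrb and Utf1, were tested. Over 72 h 2 of them were called lower and 0 higher in each kind of cells. Of all tested probes 31.3% were called lower in EGFP cells and 35.8% in W20 cells. Their summed signal was 0.485 to 0.496 in EGFP NPC and 0.378 to 0.389 in W20 NPC. At 72 h it was 0.203 to 0.209 in EGFP cells and 0.2 to 0.205 in W20 cells. In bulk RNA, fewer cells of a type and less RNA per cell cannot be told apart.

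The E-box is the sequence that all dimers of this network read, and it occurs in the promoters of some network genes. RefSeq promoters (GRCm38.p6, 250 bases before to 50 after the gene start) were available for 8 of the 9 genes, all but Myc. CACGTG, which reads the same on both strands, stood in those of 3 genes, Max, Mxd4 and Mnt, against 7.15% of the 32851 promoters in the table. The following 30-base windows are shown to place these E-boxes, in capitals, on the strand of each gene.
Max, chr12:76962234-76962263, minus strand, E-box from position -3 relative to the gene start: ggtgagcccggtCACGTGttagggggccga
Mxd4, chr5:34187912-34187941, minus strand, E-box from position -219: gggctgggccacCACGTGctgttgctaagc
Mnt, chr11:74830789-74830818, plus strand, E-box from position -123: ccccacccaagcCACGTGtgcgcgcgcggt

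The motif TTTGGCGC, of the kind bound by E2F factors that link Mycn to the cell cycle, was searched on both strands and found in 0.514% of the promoters. Among the network genes it stood in the promoter of Mycn alone, at 2 places, in windows that overlap each other and hold no CACGTG. They are shown because Mycn had the largest W20 effect among the tested network probes in NPC. A match describes letters in a window and is not evidence of binding.
Mycn, chr12:12942001-12942030, minus strand, motif from position -183: agcaaatggctTTTGGCGCgaaaggctttg
Mycn, chr12:12941986-12942015, minus strand, motif from position -168: gcgcgaaaggcTTTGGCGCctcccctgatt

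Signals are given as levels, which are log2 of the signal minus log2 of the 75th percentile of that array, so that a level of 0 marks the 75th percentile. Levels of different probes were not compared, since probes differ in brightness for the same amount of RNA. Differences are log2 differences of group means, given ± SE (the standard error, from 2 arrays in each group), and a call means a Benjamini-Hochberg adjusted p under 0.05 from limma over all 25725 tested probes. Of the 16 probes 15 were tested. A probe was tested where some group had it well above background on each of its 2 arrays.

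In NPC, all 3 Myc probes were higher with W20, Mycn was lower, and 1 of the 2 Mxd1 probes, both Mxd3 probes and Mxd4 were lower. At 72 h the Mycn difference had narrowed and Mycl was higher with W20. Over the 72 h Mycl, Mxd3, Mxd4 and 1 of the 2 Mxd1 probes rose and Mga fell in both kinds of cells, and the Myc probes went in opposite directions.

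Myc drives cell growth and is rate-limiting for entry into the cycle in many cell types. Probe A_51_P102096, which the array carries on 10 spots, had levels of 2.05 and 1.96 in EGFP NPC and 2.50 and 2.51 in W20 NPC. The W20 arrays were above the EGFP arrays by 0.50 ± 0.043 (limma adjusted p = 7.52e-04). Probe A_52_P108346 had 1.49 and 1.42 in EGFP NPC against 1.89 and 1.92 in W20 NPC, a difference of 0.45 ± 0.045 (adjusted p = 0.00112). Probe A_52_P278549 had -1.55 and -1.56 against -1.03 and -1.02, a difference of 0.53 ± 0.035 (adjusted p = 3.94e-04). On each probe both W20 arrays were above both EGFP arrays, and the rises were 1.42-fold, 1.36-fold and 1.45-fold. All 3 calls held under every alternative processing tried, with differences between 0.40 and 0.58.

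After 72 h the probes parted. A_51_P102096 had levels of 0.37 and 0.31 in EGFP cells and -1.20 and -1.16 in W20 cells, so that all 72 h arrays were below all NPC arrays and the W20 arrays were lowest. Its difference over 72 h was -1.66 ± 0.043 in EGFP cells and -3.69 ± 0.043 in W20 cells, which is 3.17-fold and 12.9-fold lower. A_52_P108346 had 5.04 and 4.96 in EGFP cells and 5.62 and 5.60 in W20 cells, where all 72 h arrays were above all NPC arrays and the W20 arrays were highest. Its differences over 72 h were 3.54 ± 0.045 and 3.71 ± 0.045, or 11.7-fold and 13.0-fold higher. A_52_P278549 showed the same order, with 2.84 and 2.85 in EGFP cells and 3.56 and 3.50 in W20 cells. Its differences over 72 h were 4.40 ± 0.035 and 4.55 ± 0.035, or 21.1-fold and 23.5-fold higher.

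**Figure D1:**
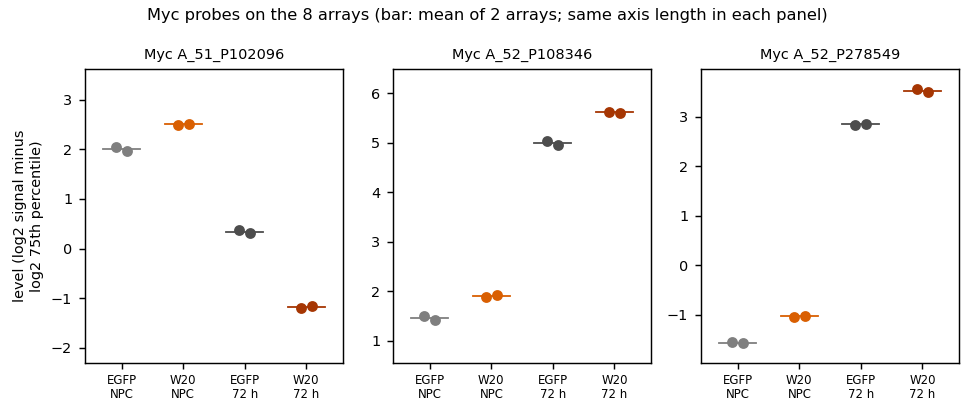
Levels of the 3 Myc probes (vertical axis, log2 signal minus log2 75th percentile of the array) on the 2 arrays of each group (horizontal axis), with a bar at the group mean and the same axis length in each panel. In NPC the W20 arrays are above the EGFP arrays in all 3 panels; at 72 h A_51_P102096 is lower than in NPC and the other probes are higher.

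The W20 effect at 72 h also had opposite signs on the Myc probes. It was -1.52 ± 0.043 on A_51_P102096, 0.61 ± 0.045 on A_52_P108346 and 0.69 ± 0.035 on A_52_P278549. Subtracting the NPC effect gave -2.02 ± 0.061 for A_51_P102096, against 0.16 ± 0.063 and 0.15 ± 0.049 for the other probes. These values are descriptions, since the probes' directions over 72 h entered the choice of genes. The spots of A_51_P102096 agreed closely, with an SD between its 10 spots of 0.041 to 0.108 on each array. Where the probes lie in the Myc transcript was not analysed here.

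For scale, the spread between probes of a gene was taken for all 5094 genes with several tested probes. Over 72 h the differences of the Myc probes spanned 6.07 in EGFP cells and 8.24 in W20 cells, against medians of 0.181 and 0.209 over these genes, and Myc ranked 1 in each. In W20 against EGFP the Myc probes spanned 2.21 at 72 h, rank 8, and 0.08 in NPC, rank 3091. The choice of Myc for this pattern makes these ranks a description.

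The genes nearest to each Myc probe were taken by the root mean square difference of the 4 group means, each centred on its own mean, over 18085 probes well above background on all arrays. Nearest to A_51_P102096 were Acap1 at 0.172, Ptprn at 0.196 and Fcmr at 0.241 log2 units. Nearest to A_52_P108346 were Adap1 at 0.082, Gsdma at 0.092 and Ly6a at 0.114. Nearest to A_52_P278549 were Sox13 at 0.192, Cd24a at 0.251 and Strip2 at 0.290. No gene was shared between these lists.

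Mycn encodes N-Myc, the family member of embryonic neural progenitors. Probe A_52_P536494 had levels of -1.90 and -1.80 in EGFP NPC and -5.35 and -4.94 in W20 NPC, where 1 of the 2 arrays was well above background. It was lower with W20, with a measured difference of -3.29 ± 0.157 (adjusted p = 2.06e-04). Its size depends on the background correction, since the W20 arrays lay near background: with normexp it was -1.76 (2.84e-05). At 72 h it had -2.55 and -2.72 in EGFP cells and -2.88 and -3.13 in W20 cells, a difference of -0.37 ± 0.157 that was not called (adjusted p = 0.114). The groups did not overlap, and their order from lowest to highest was W20 NPC, W20 at 72 h, EGFP at 72 h and EGFP NPC.

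Over 72 h Mycn moved in opposite directions in the 2 kinds of cells. It fell by 0.79 ± 0.157 in EGFP cells (adjusted p = 0.00658) and rose by 2.14 ± 0.157 in W20 cells (adjusted p = 9.28e-05). The W20 effect at 72 h minus that in NPC was 2.93 ± 0.222 (adjusted p = 0.00143). With normexp the rise in W20 cells was 0.95 and the difference of the effects 1.61, each still called (4.32e-05 and 4.93e-04). The other Mycn probe, A_51_P497332, was too close to background on all arrays to be tested. Nearest in pattern to A_52_P536494 were Egr1 at 0.299, Pcdh10 at 0.306 and Cdh11 at 0.344 log2 units.

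Mycl encodes L-Myc, a family member with weaker transforming activity that can stand in for Myc in reprogramming. Its probe A_52_P93284 had levels of -4.48 and -4.34 in EGFP NPC, -4.43 and -4.72 in W20 NPC, -3.42 and -3.51 in EGFP cells at 72 h and -2.97 and -3.06 in W20 cells at 72 h. The NPC groups overlapped (difference -0.16 ± 0.109, adjusted p = 0.267), and both 72 h groups were above them. Over 72 h it rose by 0.94 ± 0.109 in EGFP cells (adjusted p = 7.41e-04) and by 1.56 ± 0.109 in W20 cells (adjusted p = 7.66e-05).

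At 72 h Mycl was higher with W20 by 0.45 ± 0.109 (adjusted p = 0.0219). This call was lost with normexp (0.055) and spike-in scaling (0.0522) and when any single 72 h array was left out (0.0546 to 0.0997). The difference of the W20 effects was 0.62 ± 0.154 (adjusted p = 0.0416). That call was lost without any 1 array other than W20 NPC replicate 1 (0.0637 to 0.117) and with normexp, quantile, median or spike-in scaling or no filter (0.0624 to 0.0983). With normexp the rise over 72 h was 0.29 and not called in EGFP cells (0.0617), and 0.78 and called in W20 cells (7.95e-04).

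**Figure D2:**
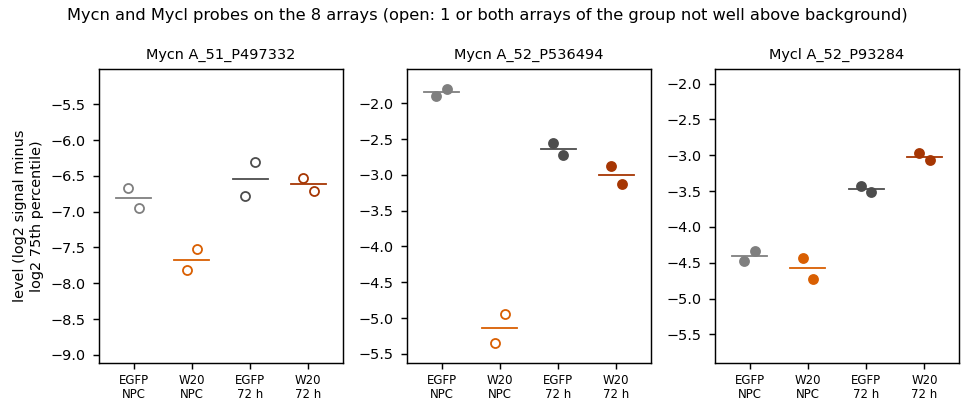
Levels of the Mycn and Mycl probes (vertical axis, log2 signal minus log2 75th percentile) on the 2 arrays of each group; open points mark groups in which 1 or both arrays were not well above background. Mycn A_52_P536494 is lowest in W20 NPC at -5.35 and -4.94, and Mycl is higher at 72 h than in NPC.

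Max is the obligate partner of the Myc proteins and also pairs with the Mxd proteins and Mnt. Its probe A_51_P188211 had levels of 3.40 and 3.43 in EGFP NPC, 3.60 and 3.61 in W20 NPC, 3.74 and 3.64 in EGFP cells at 72 h and 3.83 and 3.75 in W20 cells at 72 h. The groups stood in this order without overlap, over a range of under 2-fold. Max was higher with W20 in NPC by 0.19 ± 0.049 (adjusted p = 0.0237), and the 72 h difference of 0.10 ± 0.049 was not called (0.146). The NPC call was lost without any 1 of the 4 NPC arrays (adjusted p 0.0732 to 0.1) and with normexp, quantile, spike-in scaling or no filter (0.0524 to 0.156). Over 72 h Max rose by 0.27 ± 0.049 in EGFP cells (adjusted p = 0.00425) and by 0.18 ± 0.049 in W20 cells (0.0174). The W20 call was lost without W20 NPC replicate 1 (0.0736) or 2 (0.0594) or W20 72 h replicate 1 (0.0788), and with normexp, median or spike-in scaling (0.0558 to 0.116).

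The Mxd proteins are Max partners that repress E-box genes, and their levels usually rise as cells leave the cycle and differentiate. Mxd1 probe A_51_P490795 had levels of -0.94 and -0.99 in EGFP NPC, -1.58 and -1.68 in W20 NPC, -0.57 and -0.57 in EGFP cells at 72 h and -0.97 and -1.06 in W20 cells at 72 h. W20 arrays were below EGFP arrays at each stage, while EGFP NPC and W20 cells at 72 h overlapped. It was lower with W20 by 1.58-fold in NPC (-0.66 ± 0.054, adjusted p = 6.49e-04) and by 1.36-fold at 72 h (-0.45 ± 0.054, adjusted p = 0.00224). Over 72 h it rose by 0.40 ± 0.054 in EGFP cells (adjusted p = 0.00138) and by 0.61 ± 0.054 in W20 cells (1.89e-04).

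The other Mxd1 probe, A_51_P388607, passed in no comparison. Its levels lay between -4.83 and -4.26 over the 8 arrays, and its differences were 0.10 ± 0.143 in NPC (adjusted p = 0.594) and 0.25 ± 0.143 at 72 h (0.212). The Mxd1 probes thus had opposite signs for W20 against EGFP, and only A_51_P490795 was called. The sign of A_51_P388607 in NPC turned with normexp and without W20 NPC replicate 2.

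Mxd3 is the Mxd member linked to proliferating cells and S phase. Probe A_51_P315530 had levels of -0.0077 and -0.054 in EGFP NPC, -0.39 and -0.42 in W20 NPC, 0.45 and 0.42 in EGFP cells at 72 h and 0.43 and 0.35 in W20 cells at 72 h. Probe A_52_P190647 had 0.17 and 0.16, -0.15 and -0.21, 0.62 and 0.56, and 0.50 and 0.46 in the same groups. On both probes W20 NPC was lowest, EGFP NPC next and the 72 h groups highest, and the 72 h groups overlapped on A_51_P315530.

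Mxd3 was lower with W20 in NPC on both probes, by 0.37 ± 0.041 (adjusted p = 0.00149) and 0.34 ± 0.042 (adjusted p = 0.00198). At 72 h the differences were -0.039 ± 0.041 (0.492) and -0.11 ± 0.042 (0.0757), and neither was called. Over 72 h the probes rose by 0.46 ± 0.041 and 0.43 ± 0.042 in EGFP cells and by 0.80 ± 0.041 and 0.66 ± 0.042 in W20 cells. The difference of the W20 effects was 0.33 ± 0.058 (adjusted p = 0.0149) and 0.23 ± 0.059 (0.0457). On A_51_P315530 this call was lost without EGFP NPC replicate 1 (0.0521), W20 NPC replicate 2 (0.0562) or EGFP 72 h replicate 2 (0.0542), and with normexp, median or spike-in scaling or no filter (0.0544 to 0.144). On A_52_P190647 it was lost without any 1 of the 8 arrays (0.0684 to 0.127) and with median or spike-in scaling or no filter (0.132 to 0.355).

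Mxd4, another Mxd repressor, had levels on probe A_51_P148865 of 0.0805 and 0.019 in EGFP NPC, -0.12 and -0.12 in W20 NPC, 0.67 and 0.71 in EGFP cells at 72 h and 0.46 and 0.38 in W20 cells at 72 h. No groups overlapped, and W20 arrays were below EGFP arrays at each stage. The W20 difference was -0.17 ± 0.043 in NPC (adjusted p = 0.0238) and -0.27 ± 0.043 at 72 h (adjusted p = 0.00553). The NPC call was lost without EGFP NPC replicate 1 (0.109) or W20 NPC replicate 1 (0.091) or 2 (0.0901), and with normexp, median or spike-in scaling or no filter (0.0734 to 0.207). Over 72 h Mxd4 rose by 0.64 ± 0.043 in EGFP cells (adjusted p = 9.45e-05) and 0.54 ± 0.043 in W20 cells (1.33e-04).

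Mnt is a broadly present Max partner that opposes Myc in cycling as well as resting cells. Probe A_52_P477431 stayed between 3.32 and 3.52 on all arrays, with 3.39 and 3.44 in EGFP NPC and 3.32 and 3.34 in W20 NPC. Its W20 differences of -0.083 ± 0.037 in NPC (adjusted p = 0.123) and 0.012 ± 0.037 at 72 h (0.824) were not called, and the sign at 72 h changed with the scaling. Its only called difference was a rise over 72 h in W20 cells of 0.17 ± 0.037 (adjusted p = 0.00937), lost with spike-in scaling (0.165).

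Mga carries a T-box as well as a Max-binding domain and anchors a repressor complex that silences germline genes in many cell types. Over 72 h all 3 Mga probes fell in both kinds of cells. Probe A_52_P189030 had levels of 0.09 and 0.11 in EGFP NPC, 0.17 and 0.27 in W20 NPC, -0.24 and -0.18 in EGFP cells at 72 h and -0.23 and -0.17 in W20 cells at 72 h. It fell by 0.31 ± 0.049 in EGFP cells (adjusted p = 0.00256) and 0.42 ± 0.049 in W20 cells (6.30e-04), and the 72 h groups overlapped. Probe A_52_P474871 had -3.00 and -2.85, -2.63 and -2.51, -3.21 and -3.27, and -3.20 and -3.13 in the same groups. It fell by 0.31 ± 0.067 in EGFP cells (0.0087) and 0.60 ± 0.067 in W20 cells (5.40e-04).

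Mga probe A_51_P193270 had levels of 0.57 and 0.66, 0.72 and 0.73, 0.29 and 0.47, and 0.40 and 0.50 in these groups, and fell by 0.23 ± 0.072 (adjusted p = 0.0321) in EGFP cells and 0.27 ± 0.072 (0.0167) in W20 cells. Its call in EGFP cells was lost without any 1 of the 4 NPC arrays or EGFP 72 h replicate 1 (0.0558 to 0.141), with spike-in scaling (0.111), with no filter (0.072) and with only the arrays compared (0.0738). Its call in W20 cells was lost without W20 NPC replicate 1 (0.0624) or 2 (0.0637) or W20 72 h replicate 1 (0.0799). In NPC 1 of the 3 probes, A_52_P474871, was higher with W20 (0.36 ± 0.067, adjusted p = 0.0085), while the others gave 0.11 ± 0.072 (0.255) and 0.12 ± 0.049 (0.0963). The call on A_52_P474871 was lost with normexp, at a difference of 0.15 (0.21), and with spike-in scaling (0.0501). At 72 h no Mga probe was called for W20 against EGFP.

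**Figure D3:**
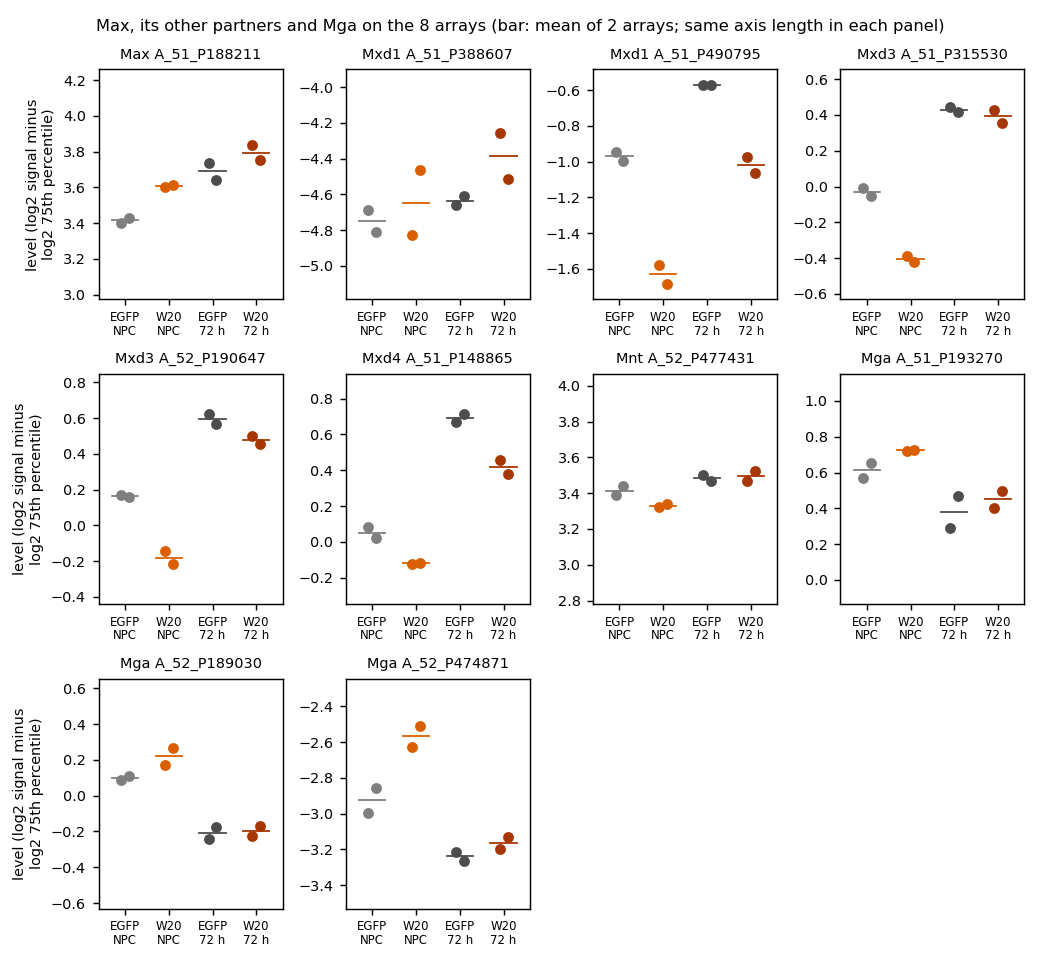
Levels of the Max, Mxd1, Mxd3, Mxd4, Mnt and Mga probes (vertical axis, log2 signal minus log2 75th percentile) on the 2 arrays of each group, with a bar at the mean and the same axis length in each panel. W20 NPC is the lowest group on Mxd1 A_51_P490795, both Mxd3 probes and Mxd4, and the 72 h groups are lower than the NPC groups on the Mga probes.

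Counted over probes, 10 of the 15 tested were called for W20 against EGFP in NPC, 5 higher and 5 lower, where 45.8% of all tested probes were called, 26.6% higher and 19.2% lower. The 5 higher were the 3 of Myc, Max and 1 of Mga, and the 5 lower were Mycn, Mxd1, both of Mxd3 and Mxd4. Mycn was the 1 probe called at least 2-fold lower and none was called at least 2-fold higher, where 2.52% and 0.879% of all tested probes were. The median size of the 15 differences was 0.34, against 0.197 over all tested probes. At 72 h 3 of the 12 probes of genes other than Myc were called, Mycl higher and Mxd1 and Mxd4 lower, where 42.4% of all tested probes were called, 23.2% higher and 19.2% lower. None of these was a 2-fold difference, where 0.661% of all tested probes were called at least 2-fold higher and 2.07% at least 2-fold lower. Their median size was 0.11, against 0.183 over all.

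Over 72 h in EGFP cells 10 of these 12 probes were called, 6 higher and 4 lower, where 63.4% of all tested probes were called, 32.1% higher and 31.3% lower. In EGFP cells none of the 12 reached 2-fold, where 5.8% of all tested probes were called at least 2-fold higher and 6.17% lower. In W20 cells 11 of 12 were called, 8 higher and 3 lower, where 69.7% were called, 34% higher and 35.8% lower. In W20 cells Mycn and Mycl were at least 2-fold higher and none was 2-fold lower, where 7.78% and 9.05% of all tested probes were; with normexp both were under 2-fold, at 0.95 and 0.78. The EGFP and W20 comparisons over 72 h differed for Mycn, which fell in EGFP cells and rose in W20 cells. The difference of the W20 effects was called for 4 of 12 probes, where 21.9% of all tested probes were called, 10.3% higher and 11.6% lower. Mycn was the only one past 2-fold, where 1.71% of all tested probes were called at least 2-fold higher and 1.36% lower. All 4, Mycn, Mycl and both of Mxd3, had a higher W20 effect at 72 h than in NPC. Only Mycn kept this call under every alternative.

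**Figure D4:**
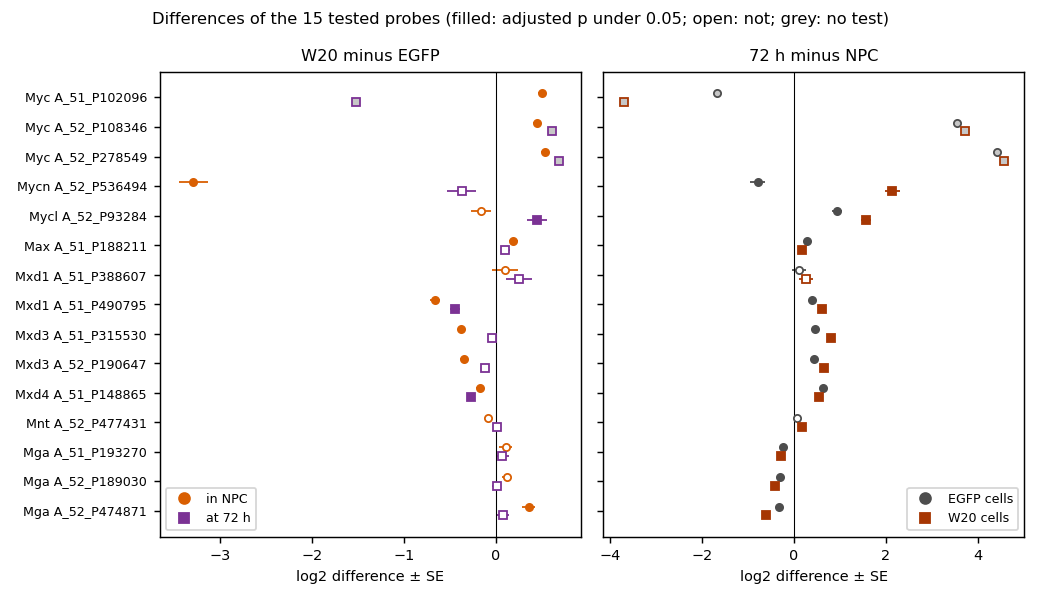
Log2 differences ± SE (horizontal axes) of the 15 tested probes for W20 minus EGFP in NPC and at 72 h (left) and for 72 h minus NPC in EGFP and W20 cells (right); filled points had an adjusted p under 0.05, open points did not, and grey Myc points had no test. Mycn in NPC is lowest on the left at -3.29, and the Myc probes lie on both sides of 0 on the right.

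Markers of other cell types also differed between the groups. The summed signal of 6 mesenchymal markers was 145 to 165 times the 75th percentile in EGFP NPC and 97.9 to 101 in W20 NPC, and 134 to 137 and 88.6 to 91.4 in EGFP and W20 cells at 72 h. In NPC all 6 of these markers were called lower with W20, among them Postn, Col1a1 and Col3a1, where 19.2% of all tested probes were. At 72 h 5 were called lower and 0 higher, where 19.2% and 23.2% of all tested probes were. Astrocyte markers, 4 of 5 tested, summed to 11.0 to 12.4 in EGFP NPC, 4.16 to 4.41 in W20 NPC, 1.81 to 1.86 in EGFP cells at 72 h and 1.24 to 1.28 in W20 cells at 72 h. Neuron markers, 3 of 6 tested, summed to 1.21 to 1.33, 0.911 to 0.923, 1.52 to 1.54 and 2.27 to 2.44 in the same order, and oligodendrocyte markers, 4 of 5 tested, to 2.77 to 2.82, 3.17 to 3.35, 4.75 to 4.91 and 6.37 to 6.41. Mesenchymal and astrocyte sums were thus lower with W20 at each stage, and oligodendrocyte sums higher. Pecam1 and Cdh5 of endothelial cells and the 4 microglia and blood markers were not well above background on both arrays of any group. The other 2 endothelial markers, Kdr and Tek, were tested, and both were called higher over 72 h in each kind of cells. Of all tested probes 32.1% were called higher in EGFP cells and 34% in W20 cells. Kdr was well above background on 4 arrays and Tek on 3. In the same order of groups their sums were 0.00931 to 0.00985, 0.0103 to 0.0121, 0.139 to 0.141 and 0.1665 to 0.1888. The part of these markers in the Myc and Mycn differences was not tested.

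Most of the tested genes that Myc-Max dimers are known to activate through E-boxes were called higher with W20 at each stage. The list covers nucleotide and polyamine synthesis, the nucleolus, translation and the cell cycle, and 29 of its 30 genes were tested. In NPC 21 of 29 were called higher and 0 lower, where 26.6% of all tested probes were called higher and 19.2% lower. At 72 h 24 were higher and 1 lower, where 23.2% were called higher and 19.2% lower. The median difference was 0.34 in NPC and 0.40 at 72 h, against 0.050 and 0.034 over all tested probes. Cdk4, a cell cycle kinase, and Apex1, a DNA repair enzyme, were among those not called, at -0.023 and -0.026 in NPC (adjusted p = 0.732 and 0.75). The counts of higher genes ranged from 17 to 23 in NPC and from 17 to 25 at 72 h over the alternatives. List genes were counted on 1 probe each and were chosen with earlier results of these data known. With 1 probe per named gene, 4331 of all 13626 probes so tested were called higher and 3222 lower in NPC. At 72 h 3864 of them were called higher and 3321 lower.

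In NPC the largest called rises of this list were those of Ccnd2, a D-type cyclin (0.79 ± 0.034, adjusted p = 1.70e-04), and Nme1, a nucleoside diphosphate kinase (0.66 ± 0.074, adjusted p = 0.00156). At 72 h they were those of Slc7a5, which carries large neutral amino acids (1.20 ± 0.057, adjusted p = 1.83e-04), and Shmt2, a mitochondrial enzyme of serine and one-carbon metabolism (0.70 ± 0.062, adjusted p = 8.96e-04). Slc7a5 had levels of 0.67 and 0.51 in EGFP NPC, 0.98 and 1.01 in W20 NPC, 0.13 and 0.15 in EGFP cells at 72 h and 1.33 and 1.36 in W20 cells at 72 h. Its W20 effect was larger at 72 h by 0.80 ± 0.080 (adjusted p = 0.00283). For Tfrc, the transferrin receptor, it was larger by 0.66 ± 0.055 (adjusted p = 0.0018). Tert, the catalytic subunit of telomerase, was lower with W20 at 72 h by 0.37 ± 0.067 (adjusted p = 0.00868), a call lost with normexp (0.126).

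Over 72 h the list was mixed. In EGFP cells 15 genes were higher and 6 lower, where 32.1% of all tested probes were called higher and 31.3% lower. In W20 cells 19 were higher and 5 lower, where 34% and 35.8% were. Cdc25a, a phosphatase that drives entry into S phase, rose by 1.15 ± 0.048 in EGFP cells and 1.40 ± 0.048 in W20 cells (adjusted p = 1.78e-05 and 5.70e-06). Shmt2 fell by 1.13 ± 0.062 and 0.90 ± 0.062 (adjusted p = 4.45e-05 and 7.20e-05).

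Genes that Myc is known to repress went both ways with W20. In NPC 4 of the 14 tested were higher and 8 lower, where 26.6% and 19.2% of all tested probes were, and at 72 h 4 were higher and 6 lower, where 23.2% and 19.2% were. Cdkn1a, the p21 inhibitor of cyclin-dependent kinases, had levels of 0.40 and 0.35 in EGFP NPC, 1.50 and 1.42 in W20 NPC, 1.17 and 1.18 in EGFP cells at 72 h and 2.32 and 2.27 in W20 cells at 72 h. It was thus higher with W20 by 1.09 ± 0.042 in NPC (adjusted p = 1.51e-04) and 1.12 ± 0.042 at 72 h (1.22e-04). Gadd45a, a stress response gene, was also higher, by 0.43 ± 0.050 in NPC (0.0017). Gas1, a growth arrest gene that also binds Hedgehog ligand, was lower by 0.84 ± 0.051 in NPC (3.25e-04) and 1.38 ± 0.051 at 72 h (1.22e-04). Cebpa, a differentiation factor, was lower by 1.18 ± 0.136 in NPC (0.00168). Col1a2 of this list is also 1 of the mesenchymal markers above.

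**Figure D5:**
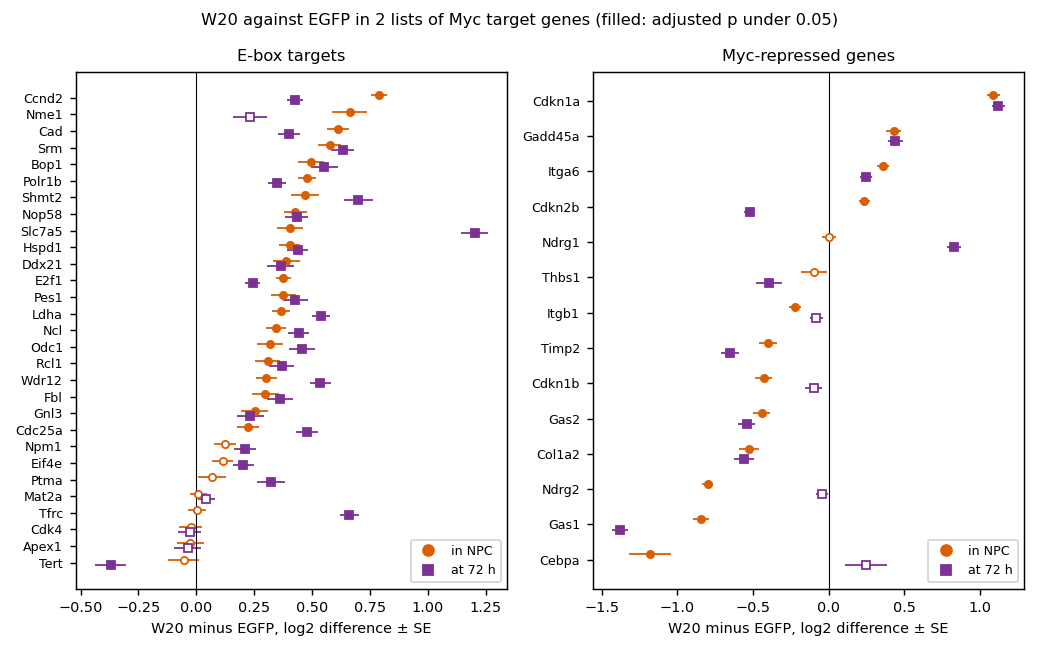
W20 minus EGFP, as log2 difference ± SE (horizontal axis), in NPC and at 72 h for the 29 tested E-box targets (left) and the 14 tested Myc-repressed genes (right), ordered by the NPC difference; filled points had an adjusted p under 0.05. In NPC 21 E-box targets are filled and to the right of 0, and the repressed genes lie on both sides, from Cebpa at -1.18 to Cdkn1a at 1.09.

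Other members of the extended network were Mxi1, Mlx, Mlxip and Mlxipl, all tested. Mxi1, a further Mxd-type repressor, was higher with W20 at 72 h by 0.39 ± 0.039 (adjusted p = 0.00126) and rose over 72 h in W20 cells by 0.65 ± 0.039 (3.98e-05). Mlxip, the partner of Mlx in glucose sensing, rose over 72 h by 0.63 ± 0.070 in EGFP cells (6.55e-04) and 0.69 ± 0.070 in W20 cells (3.55e-04).

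Of 19 tested cofactors of Myc and its antagonists, 6 were higher and 2 lower with W20 in NPC, where 26.6% and 19.2% of all tested probes were, and 7 were higher and 1 lower at 72 h, where 23.2% and 19.2% were. The median differences were 0.06 and 0.09, near the 0.050 and 0.034 over all tested probes. The counts of higher genes fell to 2 and 1 at the lowest among the alternatives. Ruvbl2, an ATPase of the chromatin complexes that Myc recruits, was higher by 0.35 ± 0.051 in NPC (adjusted p = 0.00354) and 0.39 ± 0.051 at 72 h (0.00292). Over 72 h Trrap, the scaffold through which Myc recruits acetyltransferases, fell by 0.65 ± 0.082 in EGFP cells (0.00106) and 0.59 ± 0.082 in W20 cells (0.00124). Hdac2, a deacetylase used by the Mxd proteins, rose by 0.40 ± 0.033 (1.87e-04) and 0.78 ± 0.033 (1.11e-05).

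Of 16 tested genes that control the stability of Myc protein, 7 were higher and 2 lower with W20 in NPC (all tested probes 26.6% and 19.2%) and 6 higher and 1 lower at 72 h (23.2% and 19.2%). With spike-in scaling 2 were higher at each stage. The deubiquitinase gene Usp36 was higher by 0.57 ± 0.057 in NPC (adjusted p = 0.00112) and 0.50 ± 0.057 at 72 h (0.00188). Fbxo32, an F-box protein reported to act on Myc, was lower by 1.22 ± 0.045 in NPC (1.51e-04) and 0.59 ± 0.045 at 72 h (5.95e-04). Its levels were -0.81 and -0.75 in EGFP NPC against -1.95 and -2.05 in W20 NPC.

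In the repressor complex of Mga, with 13 genes tested, 6 were higher and 1 lower with W20 in NPC (all tested probes 26.6% and 19.2%) and 10 higher and 0 lower at 72 h (23.2% and 19.2%). The count of 10 fell to 1 at the lowest among the alternatives, while the NPC count of higher genes ranged from 4 to 7. L3mbtl2, a chromatin reader of this complex, was higher by 0.53 ± 0.074 in NPC (adjusted p = 0.00307). Wdr5 and Hdac2 stand on both this list and that of the cofactors. Over 72 h L3mbtl2 rose by 0.85 ± 0.074 in EGFP cells (2.45e-04) and 0.60 ± 0.074 in W20 cells (8.08e-04), while Mga itself fell.

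Hedgehog pathway genes were read because Hedgehog signalling activates Mycn in neural progenitors. Gli1, Gli2 and Shh were not well above background on both arrays of any group. Of the 9 tested, 2 were higher and 5 lower with W20 in NPC (all tested probes 26.6% and 19.2%), and 2 higher and 3 lower at 72 h (23.2% and 19.2%). Among the alternatives the NPC counts went as low as 0 higher, with normexp, and 3 lower, without EGFP NPC replicate 1 or W20 NPC replicate 1 or 2. Boc, a co-receptor, had levels of -0.30 and -0.16 in EGFP NPC, -2.10 and -2.16 in W20 NPC, -0.67 and -0.80 in EGFP cells at 72 h and -1.13 and -1.21 in W20 cells at 72 h. It was lower with W20 in NPC by 1.90 ± 0.070 (adjusted p = 1.51e-04), and its W20 effect differed between the stages by 1.46 ± 0.099 (0.00106). Gas1, given above, also belongs to this list.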

How the data were processed

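Scanner files of 8 arrays (Whole Mouse Genome 4x44K, Cy3) hold spot intensity on a linear scale. Per the file headers, the authors' files were made with Agilent Feature Extraction 10.7.3.1, and the deposited processed intensity used here is already background-corrected. Outlier spots, 95 to 137 per array, were left out. Intensity was taken as log2, the 75th percentile of each array (829 to 940 intensity units) was subtracted, and spots of a probe were averaged. RefSeq accessions (GRCm38.p6) gave 27584 of 41174 probes a symbol.

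The 25725 probes that some group had well above background on each of its arrays entered 1 limma fit (version 3.58.1, R 4.3.3) of the 8 arrays (4 group means, no block, 4 residual and 1.56 prior degrees of freedom), for 5 comparisons, two-sided, with Benjamini-Hochberg adjustment over all tested probes. Replicates share a number in the titles, but the labels do not say that it marks a shared culture, so no pairing was used. Same-numbered deviations correlated at -0.142 to 0.255 between groups, and at 0.223 to 0.255 between the groups other than W20 NPC. Tested on simulated data over these probes, for W20 against EGFP in NPC, the fit recovered 57% of 100 shifts of 0.5 and 80% of 100 shifts of 1 log2 unit, with 7 false calls. No other probes were shifted, while 45.8% of all tested probes were called in the data for this comparison. The adjustment depends on that share, so these rates need not hold for the data.

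The series' deposited value table is on a log2 scale. Its 4 NPC columns equalled their own arrays within 0.01 for 100% of probes after a shift of 9.66 to 9.71, with column medians of -3.82 to -3.73, so its zero lies near the 75th percentile and its direction is that of the signal. The columns named for replicate 1 at 72 h equalled the mean of the NPC columns within 0.001, and those for replicate 2 did not match their arrays (column medians -3.91 to -3.78); centring there is unknown, so the table served as an alternative for NPC only.

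For a list gene the brightest probe was used. Named list genes are, per list and comparison, up to 2 higher and 2 lower with the largest called difference, well above background on all arrays compared; marker genes and levels beside them follow the lists, and 1 list gene is counted but not reported here by name. The genes, the lists and the markers were chosen with earlier results of these data known. Alternatives changed the background correction (normexp, offset 50, on the median signal), scaling (quantile, median, 8 spike-in probes), filter, probes, arrays, block and spread, and left out each array. The number of arrays limits the precision.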

Additional observations from a re-analysis of the deposited data

Results flagged for a closer look

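The W20 effect differed between the stages for 5 probes. On Myc A_51_P102096 it was 0.50 in NPC and -1.52 at 72 h, with both W20 arrays above both EGFP arrays in NPC and below them at 72 h; this difference of -2.02 was not tested. On Mycn A_52_P536494 the effect of -3.29 in NPC and -0.37 at 72 h differed by 2.93 ± 0.222 (limma adjusted p = 0.00143; 0.00981 at the highest among the alternatives). On Mycl A_52_P93284 the effects of -0.16 and 0.45 differed by 0.62 (adjusted p = 0.0416; 0.0217 to 0.117 among the alternatives). On Mxd3 A_51_P315530 the effects of -0.37 and -0.04 differed by 0.33 (adjusted p = 0.0149; 0.00287 to 0.144), and on Mxd3 A_52_P190647 those of -0.34 and -0.11 by 0.23 (adjusted p = 0.0457; 0.0171 to 0.355).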

How the results depend on the processing

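Of 1173 recomputed values of tested network probes, 1075 kept direction and side of the threshold, 75 lost and 7 gained the call, and 16 turned sign, none of these 16 having been called. Of 217 recomputed Myc values given without a test, 0 turned sign. The causes of the changes were not tested. With 1 probe per named gene, 6 of 9 were called in NPC, where 4331 of all 13626 probes so tested were called higher and 3222 lower. The difference of the W20 effects, called for 4 probes, was called for 2 with normexp and for 1 each with median scaling, spike-in scaling and no filter. Leaving out 1 array gave 8 to 10 calls in NPC, 2 to 3 at 72 h, 9 to 10 over 72 h in EGFP cells, 9 to 11 in W20 cells and 1 to 3 for the difference of the effects.

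Sign changes with another setting were as follows. With normexp, Mxd1 A_51_P388607 was -0.121 in NPC and -0.195 over 72 h in EGFP cells, and Mnt was -0.037 at 72 h. At 72 h Mnt was -0.060 with quantile and -0.026 with spike-in scaling, and Mga A_52_P189030 was -0.024 with spike-in scaling. Without single arrays, Mxd1 A_51_P388607 ranged from -0.081 to 0.287 in NPC and from -0.035 to 0.333 for the difference of the effects. At 72 h Mnt ranged from -0.015 to 0.038, Mga A_51_P193270 from -0.016 to 0.159 and Mga A_52_P189030 from -0.020 to 0.046. For the difference of the effects Mga A_51_P193270 ranged from -0.127 to 0.048.

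The labels give same-numbered arrays no link other than the number. With the replicate block the counts were 11, 3, 10, 11 and 3, in the order of comparisons above: Mga A_52_P189030 gained its NPC call (adjusted p = 0.0497) and Mycl lost that for the difference of the effects (0.0544). The crossed replicate block, chosen after seeing the data, gave 10, 3, 10, 11 and 2.

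Over all probes, spike-in scaling took higher calls from 6840 to 3271 in NPC and from 5976 to 2101 at 72 h, where their share of calls went from 54.8% to 37.9%. No filter gave 12029 higher calls at 72 h (72.9%), and normexp 3110 lower calls in place of 4934. For the difference of the effects, 2641 higher and 2991 lower calls became 1024 and 1168 with spike-in scaling and 1421 and 1464 with no filter; higher calls were 1508 with median scaling and lower calls 1551 with normexp. The slide was not run as a block, since it coincides with the stage. Probes near background, those of Mycn, Mycl and Mxd1 A_51_P388607, had the largest SEs among the network probes, 0.157, 0.109 and 0.143 in NPC.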
